A study of Mus musculus with 9 samples.

Results

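The endoplasmic reticulum (ER) chaperone genes described here are Hspa5, Hyou1, Hsp90b1, Calr, Pdia4, Pdia6, Dnajb9, Sdf2l1, Herpud1 and Xbp1. They are the 10 of 54532 listed genes that carry these names. They were picked by name, with earlier results of these data known. All 10 passed the filter on low values, an FPKM (fragments of a gene scaled by its length and by the depth of the library) of at least 1 in at least 3 libraries, together with 11727 genes in all.

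RNA sequencing was performed on B.END3 cells, a line of mouse brain endothelial cells labelled as C57BL/6. The 3 Ctrl libraries came from untreated cells. The 3 Ep1 libraries came from cells that were incubated with 300 µg/mL porfimer sodium, a porphyrin photosensitizer, for 90 min and then lit at 635 nm and 100 mW/cm2 to a light dose of 10 J/cm2. The 3 Ep2 libraries came from cells handled in the same way up to 20 J/cm2. Photodynamic therapy (PDT) of this kind releases reactive oxygen species where light meets the drug. The labels describe Ctrl as untreated, so that the drug and the light were both absent there and their effects cannot be told apart. The interval between light and lysis is not given in the sources used here. Whether replicates were separate cultures is not stated either, and p-values then measure the spread between these libraries, which may be technical.

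Between 16240688 and 19509225 fragments fell on genes in each library. Markers of endothelial cells were largely missing: 11 of 15, among them Pecam1, Kdr and Cldn5, stayed below 1 FPKM in every library, and Emcn, Erg and Robo4 were at 0. The 15 together reached 11.4 to 11.9 FPKM in Ctrl, 11.3 to 13.1 in Ep1 and 14.5 to 15.5 in Ep2. Of 12 epithelial markers, 7, among them Cdh1, Krt7 and Esrp1, also stayed below 1 FPKM in every library. The other 5 were tested, of which Epcam and Grhl2 reached at most 2.03 and 2.02 FPKM. The list together reached 1030.0 to 1082 FPKM in Ctrl, 939 to 1043 in Ep1 and 1157 to 1375 in Ep2, mostly from the keratins Krt8, Krt18 and Krt19. Mural and fibroblast markers reached 37.4 to 50.4 FPKM in total, neural markers 1.63 to 3.23, and none of 8 leukocyte markers was tested (at most 0.21 FPKM in total). The cells are therefore called by the name of the line, and the part of this marker profile in the results below was not tested. In bulk RNA, a larger share of cells using a gene and more of its RNA per cell cannot be told apart.

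Secreted and membrane proteins are threaded into the ER, where chaperones hold them while they fold, lectins follow their sugars and disulfide isomerases join their cysteines. When unfolded protein builds up, the sensors IRE1, PERK and ATF6 start the unfolded protein response (UPR), which raises chaperones, factors that send misfolded proteins to the proteasome, and the transcription factor XBP1. BiP, the product of Hspa5, binds the sensors at rest and is the usual read-out of the response.

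ATF6 and XBP1 are known to act through short promoter motifs, so the windows of the chaperone genes were searched for them. RefSeq (GRCm38.p6) gave a window of 250 bases before and 50 bases after the gene start for 9 of the 10 genes, Hyou1 having none in the table used. The ER stress element, CCAAT followed by 9 bases of any kind and CCACG on either strand, occurred in 4 of the 9 windows (Hspa5, Hsp90b1, Calr and Pdia6) and in 39 of all 32851 promoter windows, or 0.119%. Hsp90b1 held 2 copies, and was the only window of the table with more than 1. The ER stress element II, ATTGG and CCACG with 1 base between, occurred in Herpud1 and in 0.0365% of all windows. The UPR element core TGACGTGG was in none of the 9 windows and in 0.676% of all. The outer blocks of these elements are common on their own: CCAAT was found in 8 of the 9 windows and 37.4% of all, and CCACG in 8 of the 9 and 32.8% of all. The window of Xbp1 held neither block. The genes were picked by name and the motifs were known beforehand, so these shares describe the windows and test nothing. The stretches with a full element are given below, each read along its gene's strand with the element in capitals. They lie at chr2:34772020-34772048 (+) for Hspa5, chr10:86705528-86705661 (-) for Hsp90b1, chr8:84847070-84847098 (-) for Calr, chr12:17266486-17266514 (+) for Pdia6 and chr8:94386372-94386392 (+) for Herpud1. Where capitals open with CGTGG, the element lies on the opposite strand.
Hspa5: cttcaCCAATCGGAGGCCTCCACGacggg
Hsp90b1: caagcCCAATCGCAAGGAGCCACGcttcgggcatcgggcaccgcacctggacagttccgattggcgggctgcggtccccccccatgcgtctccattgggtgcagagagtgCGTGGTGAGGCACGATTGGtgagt
Calr: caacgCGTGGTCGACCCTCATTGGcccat
Pdia6: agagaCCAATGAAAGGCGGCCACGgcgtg
Herpud1: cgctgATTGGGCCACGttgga

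In untreated cells the 10 genes covered a wide range of levels. Hspa5 (292 ± 9.17 FPKM, SD, n = 3) and Calr (279 ± 10.4) led, ranks 157 and 161 among all genes, and their libraries overlapped. Hsp90b1 (163 ± 7.78), Pdia6 (115 ± 6.06), Pdia4 (75.3 ± 1.21), Hyou1 (44.6 ± 0.743), Sdf2l1 (38.2 ± 3.37), Herpud1 (31.9 ± 1.44) and Xbp1 (24.7 ± 0.684) followed, and Dnajb9 was last with 6.57 ± 1.07 FPKM. Apart from Hspa5 and Calr, no neighbours in this order had overlapping Ctrl libraries. Even the lowest gene, Dnajb9, rested on at least 279 fragments in each library, and Hspa5 on at least 23084.

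One Ep2 library stood apart for these genes. Added over the 10 genes, the level was 1053 to 1084 FPKM in Ctrl and 1100 to 1154 in Ep1, and 1256 and 1240 FPKM in Ep2 replicates 2 and 3, but 1904 FPKM in Ep2 replicate 1. In that library 6 of the 10 genes (Hspa5, Hyou1, Sdf2l1, Calr, Pdia4 and Pdia6) were at least 1.3 times the higher of the other Ep2 libraries, against 4.59% of all tested genes, and the ratio over the 10 genes ran from 0.747 for Dnajb9 to 1.73 for Hspa5. Ep2 replicate 3 had 1 such gene, beside 2.26% of all tested genes, and the other libraries had none, beside 1.53% to 3.55%. Ep2 replicate 1 was not shallow (18575984 fragments), it had the most genes above 0 of all libraries (20981), its mitochondrial share was 2.04% against 2.27% and 2.49% in the other Ep2 libraries, and its epithelial marker sum was the highest of all. The part of these differences in the high chaperone values was not tested, and the Ep2 calls of the 10 genes and the counts of the gene lists are given with and without this library. This library was singled out by values of these same genes, and leaving it out shrinks the standard error of genes such as Hspa5 and Sdf2l1. Adjusted p-values of the 10 genes without it are therefore a description only.

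**Figure D1:**
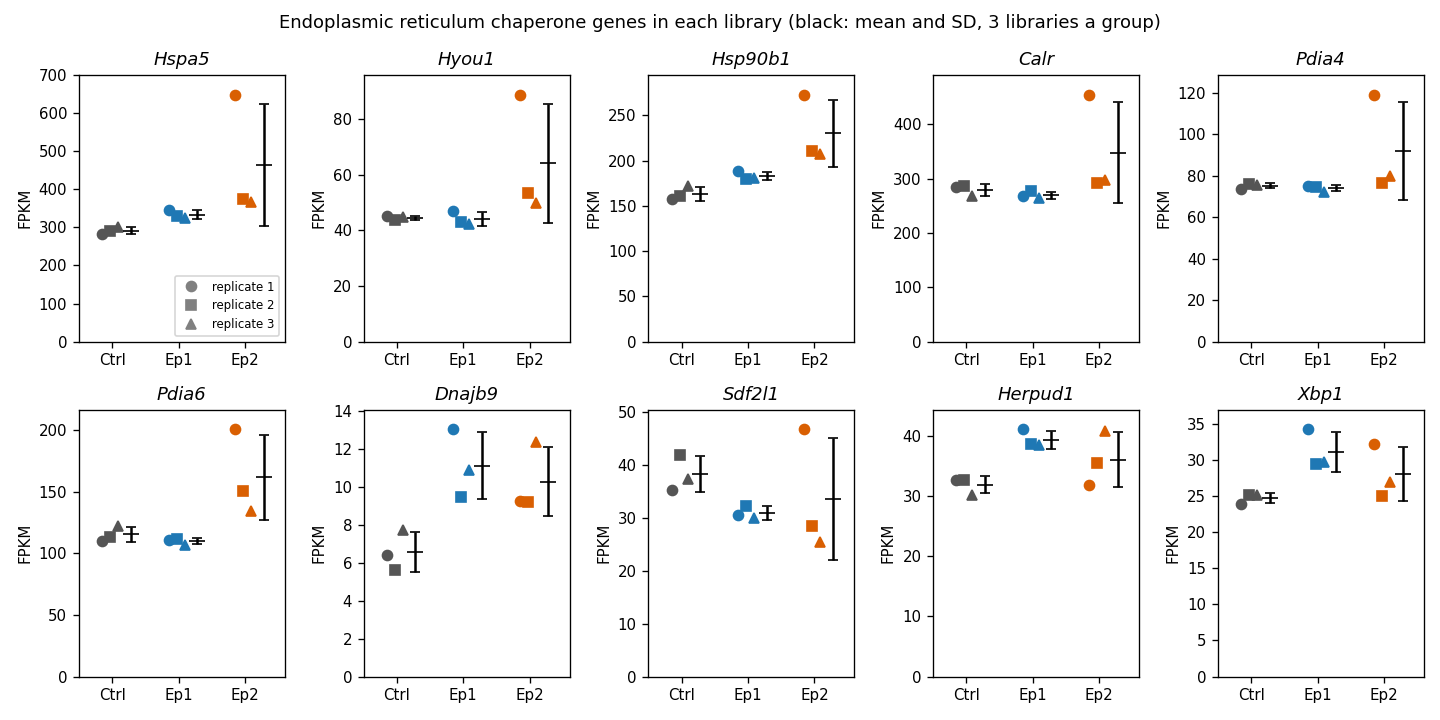
FPKM of the 10 ER chaperone genes (y axis, starting at 0) in the Ctrl, Ep1 and Ep2 libraries (x axis), with a symbol for each replicate number and the mean and SD of 3 libraries in black. Ep2 replicate 1 lies far above the other Ep2 libraries for Hspa5 (648 FPKM against 375 and 366), Hyou1, Calr, Pdia4 and Sdf2l1, and not for Dnajb9 or Herpud1.

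The high values in Ep2 replicate 1 extended to some relatives of the 10 genes and not to ER genes at large. Among 38 other ER folding factors, 6 reached 1.3 times the higher of the other Ep2 libraries, and the median ratio was 1.02. These 6, named after their values were seen, were Creld2 (2.55 times), Manf (1.72), Dnajb11 (1.60), Ero1lb (1.59), Txndc11 (1.36) and Ero1l (1.31). CRELD2 and MANF are small secreted ER stress proteins, and DNAJB11 is a J-domain partner of BiP. Outside the folding factors, the ratio was reached by Selenos of ER-associated degradation, Trib3 and Chac1 of the PERK-ATF4 branch, Srp54a of ER import, Kdelr3 of KDEL retrieval and Cryab of the heat shock genes, and by no UPR sensor. In that order these were 1 of 22, 2 of 12, 1 of 23, 1 of 19, 1 of 21 and 0 of 11 tested genes. Over all tested genes the share was 4.59%, so the lists with 1 such gene were near it. Medians of these lists were between 0.938 and 1.04.

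**Figure D2:**
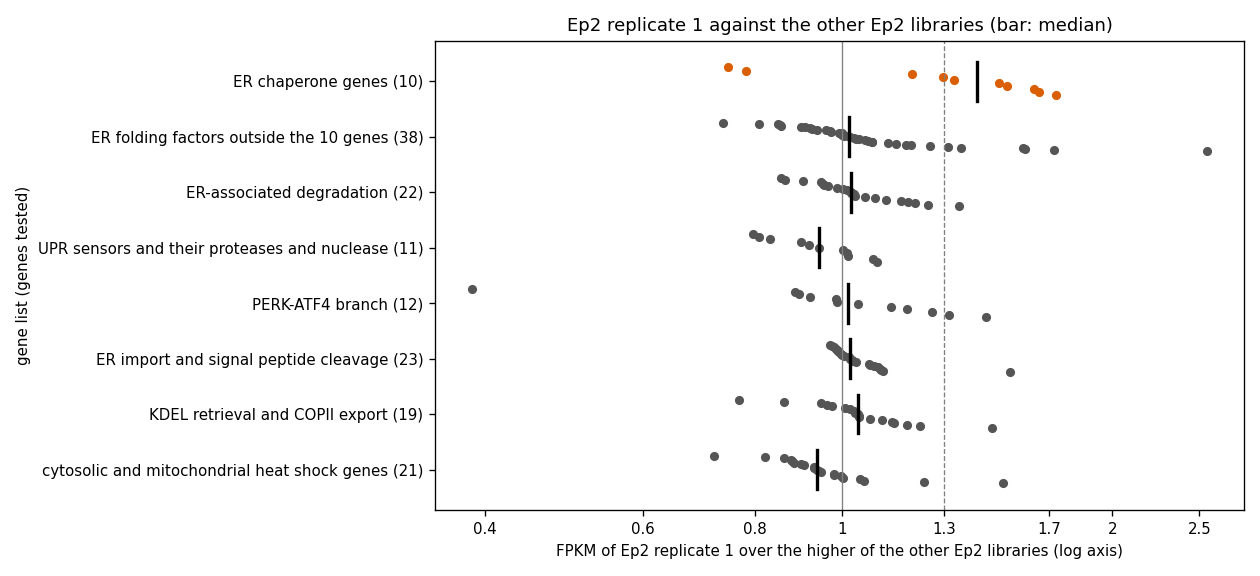
FPKM of Ep2 replicate 1 divided by the higher FPKM of the other Ep2 libraries (x axis, log scale) for each tested gene of the ER chaperones and 7 other gene lists (y axis); bars are medians, the solid line is equality and the dashed line 1.3. The median of the 10 chaperone genes is 1.41, while those of the other lists lie near 1.

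The first comparison asked what the lower light dose did. Between Ep1 and Ctrl, Dnajb9 and Herpud1 rose, 2 of the 10 genes, where 6.32% of all tested genes rose in limma (adjusted p below 0.05). None fell, where 4.97% of all did. Dnajb9 alone also passed an absolute log2 fold change of 0.6, which 0.793% of tested genes did. The groups did not overlap for more genes than were called: all Ep1 libraries lay above all Ctrl libraries for 5 genes (Hspa5, Hsp90b1, Dnajb9, Herpud1 and Xbp1; 20.8% of all tested genes) and below them for Sdf2l1 (20.5% of all). The median log2 fold change was 0.07 over the 10 genes and -0.01 over all tested genes. All 9 libraries share 1 estimate of the spread, and with Ep2 replicate 1 left out of it, a fit chosen after the data were seen, the same fold changes gave 5 genes that rose (10.1% of all) and 1 that fell (8.53% of all), with 1 past both thresholds (0.878% of all). A limma model with only the Ep1 and Ctrl libraries, among the alternatives listed below, called the same genes in the same directions. Adjusted p was 0.0184 for Hspa5, 0.0377 for Hsp90b1, 0.0251 for Dnajb9, 0.00975 for Herpud1 and 0.0169 for Xbp1. It was 0.0239 for Sdf2l1, which fell. More of all tested genes were called in that model as well.

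The second comparison asked the same of the higher dose. Between Ep2 and Ctrl, Hspa5, Hsp90b1, Pdia6 and Dnajb9 rose, 4 of the 10 genes against 23.9% of all tested genes, and none fell, against 29.3%. Hspa5 alone passed both thresholds, as 9.17% of tested genes did. Ep2 libraries lay above all Ctrl libraries for 7 genes, namely these 4 and Hyou1, Calr and Pdia4 (27.0% of all), and below them for none (32.7%). Without Ep2 replicate 1, 6 genes rose (Hspa5, Hsp90b1, Pdia6, Hyou1, Herpud1 and Dnajb9; 24.8% of all), Sdf2l1 fell (30.1%), and Dnajb9 alone passed both thresholds (9.56%). The median log2 fold change of the 10 genes was 0.38 with all libraries and 0.23 without Ep2 replicate 1, and that of all tested genes was -0.03 in both fits.

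The third comparison set the doses against each other. Between Ep2 and Ep1, Hsp90b1 and Pdia6 were higher at the higher dose, 2 of the 10 genes against 18.8% of all tested genes, and none was lower, against 25.2%. None passed both thresholds, where 5.9% of tested genes did. Ep2 libraries lay above all Ep1 libraries for 6 genes (Hspa5, Hyou1, Hsp90b1, Calr, Pdia4 and Pdia6; 24.1% of all) and below them for none (30.3%). Without Ep2 replicate 1, Hspa5, Hyou1 and Calr joined Hsp90b1 and Pdia6 above Ep1, 5 genes in all (19.0%), Xbp1 was lower (25.5%), and still none passed both thresholds (5.69%). In the model of all 9 libraries, 0 of the 10 genes were lower in any of the 3 comparisons, also at an unadjusted p below 0.05 in limma and with voom on the recovered fragments, and voom put 0 past both thresholds between the doses. The limma model with only the Ep1 and Ctrl libraries did call Sdf2l1 lower in Ep1 (-0.29, SE 0.06, adjusted p = 0.0239). The 3 comparisons share libraries, so their results are given side by side and not correlated.

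**Figure D3:**
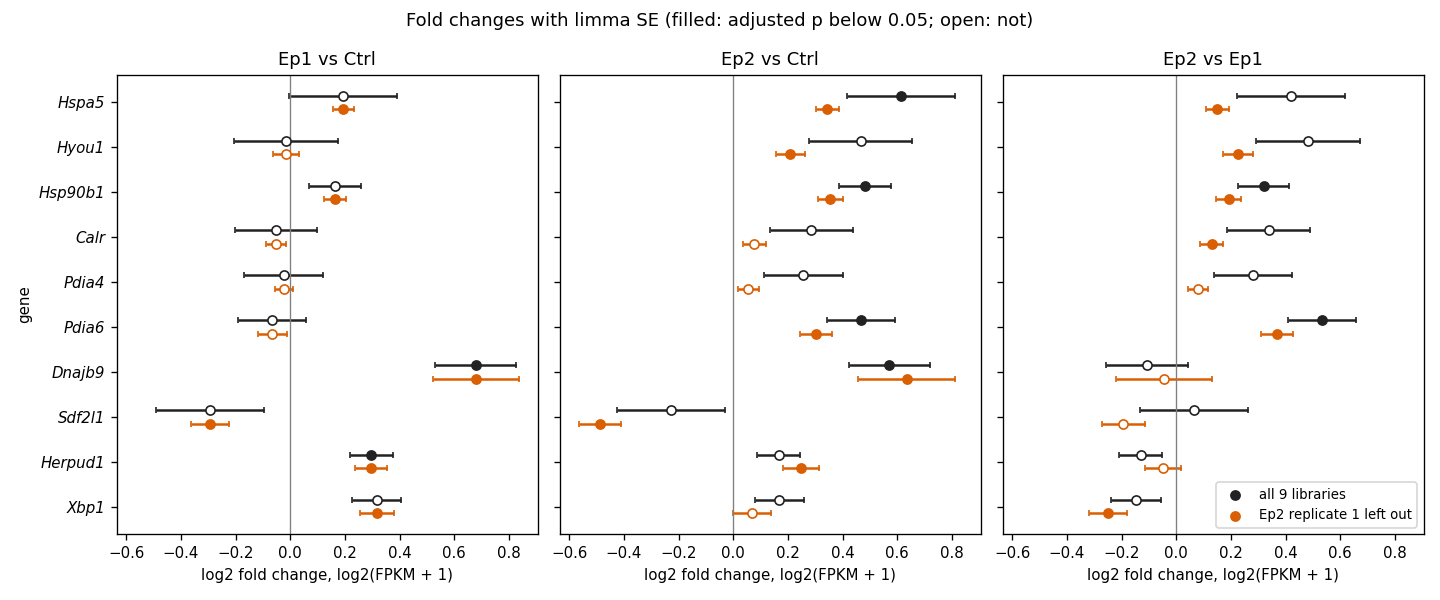
Log2 fold changes on the log2(FPKM + 1) scale (x axis) with limma standard errors for the 10 genes (y axis) in the 3 comparisons, with all libraries in black and with Ep2 replicate 1 left out in orange; filled points have an adjusted p below 0.05. Leaving out Ep2 replicate 1 shortens the error bars of Hspa5, Hyou1, Calr and Pdia4 and turns Sdf2l1 into a fall of 0.49 against Ctrl.

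Hspa5 (ENSMUSG00000026864, GRCm38 chromosome 2, 34771970 to 34777547, plus strand) encodes BiP, the main Hsp70-class chaperone of the ER. Ctrl libraries held 283, 290.4 and 301 FPKM, Ep1 libraries 347, 329 and 325, and Ep2 libraries 648, 375 and 366. Every Ep1 library lay above every Ctrl library and below every Ep2 library. Against Ctrl, the log2 fold change was 0.61 in Ep2 (SE 0.20, adjusted p = 0.0305 in limma) and 0.19 in Ep1 (SE 0.20, adjusted p = 0.556). Without Ep2 replicate 1 the change in Ep2 was 0.34 (SE 0.04, adjusted p = 0.000251), and with that library left out of the spread the change in Ep1 had an adjusted p of 0.0136. With only the Ep1 and Ctrl libraries in the model, the change in Ep1 had an adjusted p of 0.0184. The call of Hspa5 in Ep2 was lost without Ctrl replicate 1 (adjusted p = 0.0747), 2 (0.0705) or 3 (0.0518), and also with no filter on low values (0.0555), with only the groups compared in the model (0.0672) and with voom on the recovered fragments (0.0579), at log2 fold changes of 0.59 to 0.64. Between the doses, the difference was 0.42 (adjusted p = 0.121), and 0.15 (adjusted p = 0.0208) without Ep2 replicate 1.

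Hyou1 (ENSMUSG00000032115, chromosome 9, 44379490 to 44392369, plus strand) encodes GRP170, a large Hsp70 relative that acts as an exchange factor for BiP. Ctrl libraries held 45.3, 43.8 and 44.8 FPKM, Ep1 libraries 47.0, 43.1 and 42.2, and Ep2 libraries 88.9, 53.6 and 49.9. Ep1 overlapped Ctrl, and every Ep2 library was above both groups. The log2 fold change in Ep2 was 0.47 (SE 0.19, adjusted p = 0.0711) with all libraries, 0.21 (SE 0.05, adjusted p = 0.0102) without Ep2 replicate 1, and 0.62 (adjusted p = 0.0317) without Ep2 replicate 3. Against Ep1 the difference was 0.48 (adjusted p = 0.0724), 0.23 (adjusted p = 0.00918) without Ep2 replicate 1 and 0.64 (adjusted p = 0.0339) without Ep2 replicate 3. In Ep1 the change against Ctrl was -0.02 (adjusted p = 0.962).

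Hsp90b1 (ENSMUSG00000020048, chromosome 10, 86690209 to 86705509, minus strand) encodes GRP94, the Hsp90 of the ER, which folds integrins and Toll-like receptors. Ctrl libraries held 157, 160.4 and 172 FPKM, Ep1 libraries 188, 179 and 181, and Ep2 libraries 273, 211 and 207. The groups did not overlap and stood in the order of the dose. Hsp90b1 rose in Ep2 by 0.48 on the log2 scale (SE 0.10, adjusted p = 0.00229), and by 0.35 (SE 0.05, adjusted p = 0.000293) without Ep2 replicate 1. Among these genes it had the smallest adjusted p in Ep2, and the call held under each of the alternatives run. In Ep1 the change was 0.16 (adjusted p = 0.286), with an adjusted p of 0.0289 once Ep2 replicate 1 was left out of the spread. With only the Ep1 and Ctrl libraries in the model, that adjusted p was 0.0377. The difference between the doses was 0.32 (SE 0.10, adjusted p = 0.0225), and missed the threshold without Ep1 replicate 2 (adjusted p = 0.0670) or 3 (0.0632) and with no filter (0.0630), while it was 0.19 (adjusted p = 0.00963) without Ep2 replicate 1. On the opposite strand 1810014B01Rik overlaps Hsp90b1 with 35 to 68 fragments a library, against 12129 to 20968 for Hsp90b1, and whether the counting used strand is not given in the sources used here.

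Calr (ENSMUSG00000003814, chromosome 8, 84841850 to 84846934, minus strand) encodes calreticulin, the soluble lectin chaperone that also stores ER calcium. Ctrl libraries held 285, 285 and 267 FPKM, Ep1 libraries 267, 276 and 263, and Ep2 libraries 454, 291 and 297. Ep1 lay within or just under the Ctrl range, and Ep2 replicates 2 and 3 lay close above it. Against Ctrl, Calr changed by -0.05 on the log2 scale in Ep1 (adjusted p = 0.853) and by 0.29 in Ep2 (SE 0.15, adjusted p = 0.148), and the latter was 0.08 (SE 0.04, adjusted p = 0.156) without Ep2 replicate 1. Against Ep1, Ep2 was higher by 0.13 (adjusted p = 0.0356) without that library, and by 0.34 (adjusted p = 0.105) with it.

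Pdia4 (ENSMUSG00000025823, chromosome 6, 47796141 to 47813430, minus strand) and Pdia6 (ENSMUSG00000020571, chromosome 12, 17266545 to 17284770, plus strand) encode protein disulfide isomerases, ERp72 and P5. Pdia4 held 73.9, 76.2 and 75.6 FPKM in Ctrl, 74.9, 74.8 and 72.3 in Ep1, and 119, 76.8 and 79.7 in Ep2. Pdia6 held 111, 114 and 122 FPKM in Ctrl, 111, 112 and 107 in Ep1, and 201, 151 and 135 in Ep2. For Pdia4, Ep2 replicate 1 stood alone, and for Pdia6 all Ep2 libraries were clear of both groups. Pdia6 rose in Ep2 against Ctrl by 0.47 on the log2 scale (SE 0.12, adjusted p = 0.0125), and against Ep1 by 0.53 (SE 0.12, adjusted p = 0.00842). Without Ep2 replicate 1 these were 0.30 (adjusted p = 0.00268) and 0.37 (adjusted p = 0.00137), and both calls held under each of the alternatives run. Pdia4 changed by 0.26 in Ep2 (SE 0.14, adjusted p = 0.167), and by 0.06 (adjusted p = 0.234) without Ep2 replicate 1. In Ep1 both isomerases were near Ctrl, with changes of -0.02 for Pdia4 (adjusted p = 0.929) and -0.07 for Pdia6 (adjusted p = 0.762).

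Dnajb9 (ENSMUSG00000014905, chromosome 12, 44205559 to 44210326, minus strand) encodes ERdj4, a J-domain partner of BiP that helps to dispose of misfolded proteins and restrains IRE1. Ctrl libraries held 6.41, 5.60 and 7.71 FPKM, Ep1 libraries 13.0, 9.47 and 10.9, and Ep2 libraries 9.24, 9.18 and 12.4. Both treated groups were above Ctrl and overlapped each other. Dnajb9 rose by 0.68 on the log2 scale in Ep1 (SE 0.15, adjusted p = 0.0270) and by 0.57 in Ep2 (SE 0.15, adjusted p = 0.0111). The call in Ep1 was lost without Ctrl replicate 1 (adjusted p = 0.0845), Ctrl replicate 2 (0.1001), Ep1 replicate 1 (0.0819) or Ep1 replicate 3 (0.0843), and with no filter (0.0766), while the call in Ep2 held without each library and was 0.63 (adjusted p = 0.0195) without Ep2 replicate 1. Between the doses the difference was -0.11 (SE 0.15, adjusted p = 0.595).

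Sdf2l1 (ENSMUSG00000022769, chromosome 16, 17130138 to 17132383, minus strand) encodes an ER protein that assists BiP and its J-domain partners. Ctrl libraries held 35.3, 41.9 and 37.4 FPKM, Ep1 libraries 30.6, 32.3 and 29.9, and Ep2 libraries 46.7, 28.6 and 25.4. Ep1 lay wholly below Ctrl, and so did Ep2 replicates 2 and 3, while Ep2 replicate 1 was the highest library of all. With all libraries the log2 fold change was -0.29 in Ep1 (SE 0.20, adjusted p = 0.363) and -0.23 in Ep2 (SE 0.20, adjusted p = 0.361). Without Ep2 replicate 1, Sdf2l1 fell by 0.49 in Ep2 (SE 0.08, adjusted p = 0.000859), and with that library left out of the spread the change in Ep1 had an adjusted p of 0.0234. With only the Ep1 and Ctrl libraries in the model, the change in Ep1 had an adjusted p of 0.0239. Without Ep2 replicate 2 the change in Ep2 was -0.14 (adjusted p = 0.635), and without Ep2 replicate 3 it was -0.06 (adjusted p = 0.818).

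Herpud1 (ENSMUSG00000031770, chromosome 8, 94386438 to 94395377, plus strand) encodes a membrane protein that organises the ligase complex of ER-associated degradation. Ctrl libraries held 32.8, 32.7 and 30.3 FPKM, Ep1 libraries 41.1, 38.6 and 38.5, and Ep2 libraries 31.9, 35.5 and 40.9. Ep1 was clear of Ctrl, and Ep2 spanned the range of both, with replicate 1 as its lowest library. Herpud1 rose in Ep1 by 0.30 on the log2 scale (SE 0.08, adjusted p = 0.0444), a call that was lost without any 1 of the 6 libraries (adjusted p from 0.0839 without Ep1 replicate 2 to 0.132 without Ep1 replicate 1) and with no filter (0.128). In Ep2 the change was 0.17 (SE 0.08, adjusted p = 0.108), and 0.25 (SE 0.07, adjusted p = 0.0116) without Ep2 replicate 1. With all libraries it passed the threshold with voom (adjusted p = 0.0419) and with median centring (0.0475). Without Ep2 replicate 3, Ep2 was lower than Ep1 by 0.22 on the log2 scale (adjusted p = 0.0195), where all libraries gave -0.13 (adjusted p = 0.214).

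Xbp1 (ENSMUSG00000020484, chromosome 11, 5520659 to 5525893, plus strand) encodes the transcription factor whose mRNA is spliced by IRE1, and its FPKM does not tell spliced from unspliced mRNA. Ctrl libraries held 23.9, 25.1 and 25.1 FPKM, Ep1 libraries 34.2, 29.4 and 29.6, and Ep2 libraries 32.2, 24.9 and 27.0. Ep1 was clear of Ctrl, and Ep2 was not. The log2 fold change in Ep1 was 0.32 (SE 0.09, adjusted p = 0.0531), with an adjusted p of 0.0130 once Ep2 replicate 1 was left out of the spread and of 0.0243 with voom. In Ep2 it was 0.17 (adjusted p = 0.145), 0.07 (adjusted p = 0.443) without Ep2 replicate 1 and 0.25 (adjusted p = 0.0476) without Ep2 replicate 2. Xbp1 was lower in Ep2 than in Ep1 by 0.25 on the log2 scale without Ep2 replicate 1 (SE 0.07, adjusted p = 0.0186), and by 0.15 (adjusted p = 0.215) with it.

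Set side by side, the library values of the genes took unlike orders over the doses, given here as a description. Hspa5 and Hsp90b1 were stepwise, with no overlap between any groups. With all libraries neither was called in Ep1 (adjusted p = 0.556 and 0.286 in limma), nor was Hspa5 between the doses (0.121). Ep1 lay above Ctrl for 20.8% and Ep2 above Ep1 for 24.1% of all tested genes, and the share with both was not counted. Pdia6 and Hyou1 stayed at the Ctrl level in Ep1 and lay above it in Ep2, which was called for Pdia6 and not for Hyou1 (adjusted p = 0.0711). Dnajb9, Herpud1 and Xbp1 had a higher mean in Ep1 than in Ep2, although none of these differences passed the test with all libraries. Sdf2l1 was below Ctrl in 5 of the 6 treated libraries, and Calr and Pdia4 were near Ctrl in all but Ep2 replicate 1. Like Hyou1, Calr and Pdia4 had every Ep2 library above Ctrl and Ep1, with the other Ep2 libraries only close above.

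The expression of other genes over the 9 libraries was compared with that of Hspa5 by Pearson's r of log2(FPKM + 1), as a description, since the libraries form 3 groups and Ep2 replicate 1 carries much of it. Of genes outside the 10, the most alike were Smtnl2 (r = 0.995 over 9 libraries and 0.97 over 8 without Ep2 replicate 1), Manf (0.99 and 0.93), Nars (0.97 and 0.91), H1f0 (0.97 and 0.95) and Dnajb11 (0.97 and 0.79). Simc1 (-0.99 and -0.94), Mdn1 (-0.98 and -0.91) and Mapkap1 (-0.97 and -0.89) ran most against it. Within the 10 genes, Hsp90b1 was the closest with r = 0.97 over 9 libraries and 0.99 over 8. Calr fell from 0.92 to 0.27 and Pdia4 from 0.94 to 0.47 when Ep2 replicate 1 was left out, Sdf2l1 went from 0.32 to -0.87, and Herpud1 from -0.07 to 0.71. H1f0, a linker histone, held 109 to 115 FPKM in Ctrl, 126 to 131 in Ep1, and 214, 157 and 147 in Ep2.

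Other ER folding factors, 38 genes, moved in both directions. Between Ep2 and Ctrl 16 rose and 8 fell, where 23.9% and 29.3% of all tested genes did, with a median log2 fold change of 0.15 beside -0.03 over all tested genes. The counts without Ep2 replicate 1 were 17 and 9, where 24.8% and 30.1% of all were called. Ero1l, the oxidase that recharges disulfide isomerases, rose from 35.3 ± 3.73 to 91.1 ± 15.2 FPKM (log2 1.33, adjusted p = 0.000183), and by 1.20 on the log2 scale without Ep2 replicate 1. P4hb, the founding disulfide isomerase, rose from 567 ± 10.7 to 875 ± 72.4 FPKM (0.62, adjusted p = 7.71e-05, and 0.55 without Ep2 replicate 1), and Erp44, which retains folding proteins in the early secretory pathway, rose by 0.82 (adjusted p = 6.72e-06). Mogs, the glucosidase that starts the trimming of new glycoproteins, fell from 49.5 ± 1.81 to 26.0 ± 0.278 FPKM (-0.90, adjusted p = 2.02e-06). Cnpy2 (-0.56), Cnpy4 (-0.47) and the collagen folding factor Fkbp10 (-0.41) fell as well. In Ep1, Erp44 (0.26, adjusted p = 0.0223) and the Hsp70 relative Hspa13 (0.22) rose, and Cnpy2 fell (-0.22, adjusted p = 0.0214). None of these Ep1 calls was made without Ctrl replicate 1, Ctrl replicate 2, Ep1 replicate 1 or Ep1 replicate 3. Hspa13 and other genes of counts of 5 or fewer below were named after their values were seen.

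Genes that take proteins out of the ER or return them to it mostly rose at the higher dose. Of 22 tested genes of ER-associated degradation, 14 rose in Ep2 and 2 fell (median log2 fold change 0.18), against 23.9% and 29.3% of all tested genes. The largest rise was that of Sel1l, the adaptor of the HRD1 ligase, which went from 13.2 ± 0.392 to 21.8 ± 2.37 FPKM (0.68, adjusted p = 9.19e-05, and 0.59 without Ep2 replicate 1). The mannosidase Man1b1 (-0.23, adjusted p = 0.00132) and Aup1 (-0.17, adjusted p = 0.0213) fell. The counts without Ep2 replicate 1 were 14 and 1, Aup1 missing the threshold (adjusted p = 0.0510). Of 19 genes of KDEL retrieval and COPII export, 12 rose and 1, Preb, fell (-0.16, adjusted p = 0.0485), with a median of 0.25, and the counts were 12 and 2 without Ep2 replicate 1. The call of Preb was lost with voom (adjusted p = 0.0538), no filter, centring or only the groups compared. The KDEL receptor Kdelr3, which returns escaped chaperones to the ER, rose from 9.23 ± 0.249 to 22.5 ± 5.57 FPKM (1.17, adjusted p = 0.000176), and by 0.99 on the log2 scale without Ep2 replicate 1. In Ep1 the coat protein Sec13 was the sole call of that list, lower (-0.18, adjusted p = 0.0353). This call was lost when any single library of Ep1 or Ctrl was left out.

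Of 23 genes that import proteins into the ER and cleave signal peptides, 10 rose and 4 fell in Ep2 (median 0.11), against 23.9% and 29.3% of all tested genes, and 9 and 4 did without Ep2 replicate 1. In Ep1, 6 rose and 1 fell (median -0.01), against 6.32% and 4.97% of all. The translocon helper Tram1 rose by 0.70 (adjusted p = 6.32e-06) in Ep2, and Ssr4 (-0.39, adjusted p = 0.000437), Srprb, Srp19 and Srp68 fell. The call of Srp68 (adjusted p = 0.0442) was lost with voom (0.0725), no filter, centring or only the groups compared. In Ep1, Sec62 rose by 0.28 (adjusted p = 0.0224) and Sec61g, a translocon subunit, fell by 0.29 (adjusted p = 0.0302). The Ep1 counts were 0 and 0 without Ctrl replicate 1, Ctrl replicate 2 or Ep1 replicate 3, and 1 and 0 without Ep1 replicate 1. Fewer of all tested genes were called in these fits too. Among fits without 1 library, Sec62 kept its call only without Ctrl replicate 3, and Sec61g only without Ep1 replicate 2.

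The genes of the stress sensors and of the PERK-ATF4 branch gave unlike counts. Of 11 tested genes of sensors and of the proteins that act on them, 4 rose in Ep2 (Ern1, Atf6, Creb3 and Creb3l2) and 6 fell (Atf6b, Mbtps1, Mbtps2, Rtcb, Bax and Bak1), with a median of -0.21, where 23.9% and 29.3% of all tested genes were called. The counts were 4 and 6 without Ep2 replicate 1 as well. None was called in Ep1 by limma or voom, where 3 of the 11 had an unadjusted p below 0.05 in limma, and Atf6 and Creb3l2 rose once Ep2 replicate 1 was left out of the spread. Mbtps1 and Mbtps2 encode the proteases that release ATF6, Rtcb the ligase that joins Xbp1 mRNA, and Bax and Bak1 proteins of the mitochondrial death pathway. Ern1, which encodes IRE1, rose from 17.1 ± 0.136 to 24.5 ± 1.36 FPKM (0.49, adjusted p = 4.08e-05), and Atf6b fell from 47.7 ± 2.41 to 32.0 ± 1.35 FPKM (-0.56, adjusted p = 1.95e-05). Of 12 genes of the PERK-ATF4 branch, 9 rose in Ep2, against 23.9% of all tested genes, and 5 in Ep1 (Atf4, Ppp1r15a, Ppp1r15b, Cebpb and Atf3), against 6.32%, with medians of 0.46 and 0.22. With voom 7 rose in Ep2 and 4 in Ep1, and without Ep2 replicate 1 the count in Ep2 was 8 and the median 0.36. The count in Ep2 was 6 with no filter and without each single Ctrl library. The count in Ep1 was 1 without Ctrl replicate 2 or without Ep1 replicate 3, and 2 without Ctrl replicate 1 or without Ep1 replicate 1. Fewer of all tested genes, too, were called in Ep1 when a single Ctrl or Ep1 library was left out. None fell in either group in limma, and 0 did at an unadjusted p below 0.05 or with voom. Atf3, a stress-induced transcription factor, held 1.88, 2.21 and 1.73 FPKM in Ctrl, 33.8, 8.36 and 11.2 in Ep1 and 5.38, 6.30 and 13.9 in Ep2. It rose by 2.43 (SE 0.50, adjusted p = 0.0253) in Ep1 and by 1.60 (adjusted p = 0.0279) in Ep2, calls that voom did not make (adjusted p = 0.115 and 0.166) and that were also lost with no filter (0.0576 and 0.0510). The change in Ep2 without its replicate 1 was 1.83 (adjusted p = 0.0400). Its level in Ep2 replicate 1 was 0.387 times the highest of the other Ep2 libraries.

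Heat shock genes of the cytosol and mitochondria, 21 tested, gave 5 that rose (Hspa1b, Hspa4l, Hspb8, Bag3 and Hspa9) and 8 that fell in Ep2, with a median log2 fold change of -0.06. These shares stand beside 23.9% and 29.3% of all tested genes, and without Ep2 replicate 1 the counts were 4 and 9. The rises were 2 without Ctrl replicate 2, and 3 without Ctrl replicate 1 or 3 or Ep2 replicate 2 or 3. The call of Hspa1b (adjusted p = 0.0475) was lost with no filter, with the replicate block and without each single Ctrl or Ep2 library. That of Bag3 was lost with no filter and without Ctrl replicate 2 or 3 or Ep2 replicate 2 or 3. That of Hspa9 was lost with only the groups compared and without Ctrl replicate 1 or 2 or Ep2 replicate 1. Hspa4l, an Hsp110-class cytosolic chaperone, rose by 0.50 (adjusted p = 0.000127), and the Hsp90 partner Fkbp4 fell from 111 ± 4.25 to 56.3 ± 3.73 FPKM (-0.96, adjusted p = 3.4e-06). In Ep1, Hspb8 (0.24, adjusted p = 0.0212), Dnaja1 and Hspa9 rose, and Hspe1, the mitochondrial co-chaperonin gene, fell (-0.26, adjusted p = 0.0358), 3 and 1 of the 21 beside 6.32% and 4.97% of all. These counts were 0 and 0 without Ctrl replicate 2 or Ep1 replicate 3. Among fits without 1 library, Hspe1 kept its call only without Ep1 replicate 2, and Dnaja1 only without Ctrl replicate 3. With no filter on low values, 1 of the import genes, 2 of the PERK-ATF4 genes and 1 of the heat shock genes were called in Ep1, and the folding factors Erp44, Hspa13 and Cnpy2 missed the threshold (adjusted p from 0.0578 to 0.0696).

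**Figure D4:**
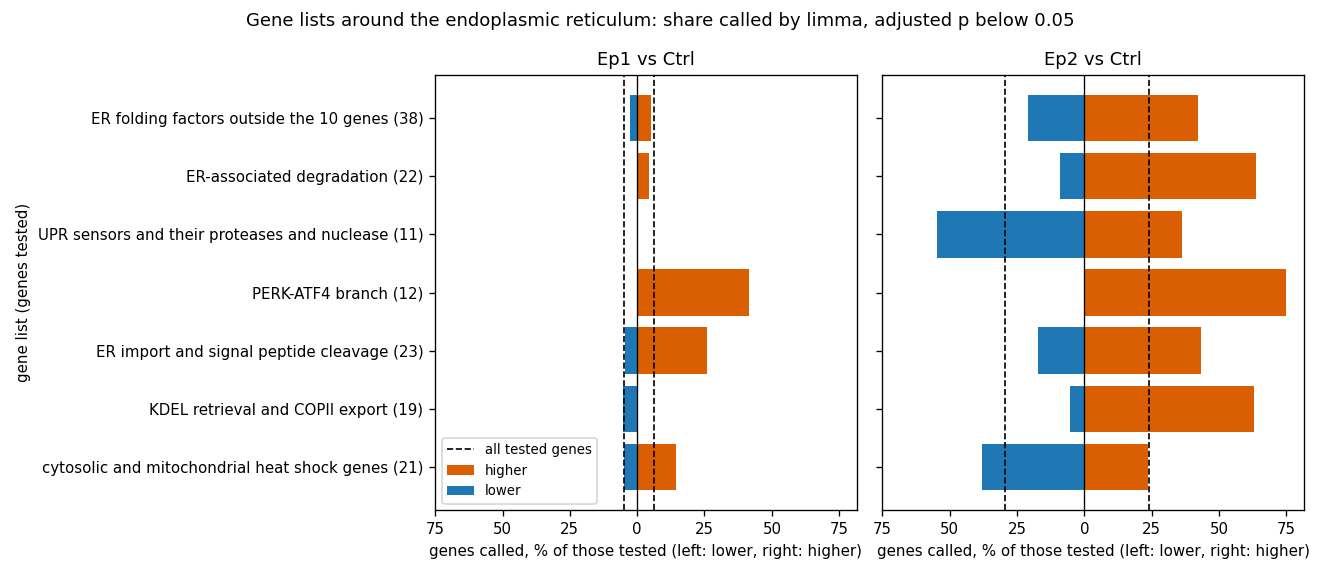
Share of the tested genes of each list (y axis, number tested in brackets) that limma called higher (orange, to the right) or lower (blue, to the left) against Ctrl, in % (x axis), for Ep1 and Ep2; dashed lines mark the shares over all tested genes. In Ep2, 9 of 12 genes of the PERK-ATF4 branch rose and none fell, while 4 of 11 sensor genes rose and 6 fell.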

How the data were processed

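The values deposited by the authors are 1 FPKM per gene and library, made from paired-end reads aligned to a mouse genome and scaled by gene length and depth. The methods name GRCm39 and the submitters' processing notes list mm8 and Bowtie 0.12.2, while the listed positions of all 10 chaperone genes overlap their GRCm38.p6 positions in RefSeq; the counting tool is not given in the sources used here. The single-library values equal those of the joint table. FPKM multiplied by gene length came in whole multiples of 1 step per library (100% of values to within 0.05), which gave the fragments per gene. These cover counting error only, and the spread between libraries sets the precision.

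The groups follow the library titles. Tests used limma 3.58.1 (R 4.3.3) on log2(FPKM + 1), with 1 model for all 9 libraries, trended and robust eBayes, no covariate, and p-values adjusted by Benjamini-Hochberg separately in the 3 comparisons. A gene was called at an adjusted p below 0.05. The second rule, with an absolute log2 fold change above 0.6, takes the thresholds of the study, whose test is not named. Fold changes on this scale understate those of low genes. The fit was tested on simulated data.

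The 10 genes, the 7 gene lists, the marker lists and the alternatives were chosen with earlier results of these data known. From each list, the called genes with the largest rise and fall in Ep1 and in Ep2 were named, and from the ER folding list also the 6 with the smallest adjusted p in Ep2. The 5 genes most like Hspa5 and the 3 most against it were named too. Alternatives were median centring, no filter, a filter at 5 FPKM, the replicate number as a block, a pseudocount of 0.1, a model with only the groups compared, voom on the recovered fragments and leaving out each library. Python 3.11.15, numpy 2.4.6, pandas 2.3.3 and matplotlib 3.10.9 were used. Protein sequences were not used here. Some results are not reported here.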

Additional observations from a re-analysis of the deposited data

Results flagged for a closer look

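The effects of the light doses differed by the direct test between Ep2 and Ep1 for Hsp90b1 and Pdia6. Hsp90b1 was higher in Ep2 by 0.32 on the log2 scale (SE 0.10, adjusted p = 0.0225 in limma), in 3 of 3 libraries against each Ep1 library, and this was lost with no filter on low values (adjusted p = 0.0630) and without Ep1 replicate 2 (0.0670) or 3 (0.0632). Pdia6 was higher in Ep2 by 0.53 (SE 0.12, adjusted p = 0.00842), also in 3 of 3 libraries. Its adjusted p stayed below 0.05 under each of the alternatives run. Hyou1 passed the same test in some of the alternatives, among them without Ep2 replicate 1 (0.23, adjusted p = 0.00918).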

How the results depend on the processing

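For single genes and comparisons, 369 alternative values kept their direction and side of the threshold, 42 passed it newly, 22 no longer passed it and 7 turned direction, all 7 in genes that did not pass the test. These were Hyou1 in Ep1 (-0.0627 to 0.0129 without 1 library, above 0 without Ep1 replicate 3) and, between Ep2 and Ep1, Dnajb9 (-0.2366 to 0.0037, above 0 without Ep1 replicate 1) and Sdf2l1 (-0.1934 without Ep2 replicate 1 to 0.2344). With that library left out, Sdf2l1 was -0.1607 with voom and -0.139 with median centring, and centring gave Dnajb9 0.0106 and Herpud1 0.007. Of the 10 genes, 2 were called in Ep1 against Ctrl: 0 with no filter, 1 with a replicate block, 6 with only the groups compared or with Ep2 replicate 1 left out of the shared spread, and 0 to 1 without 1 library. Past both thresholds, 1 became 0 with no filter and 0 to 1 without 1 library. Over all tested genes, 1324 called in Ep1 became 396 with no filter, 2162 with only the groups compared, 1993 with voom, 2183 with Ep2 replicate 1 left out of the spread, and 191 to 1034 without 1 library. In Ep2 against Ctrl, voom also called 4 genes, with Herpud1 (adjusted p = 0.0419) in place of Hspa5 (0.0579). The 4 became 3 to 7 without 1 library, the 7 being those without Ep2 replicate 1. Without that library they were 8 with voom and 9 with centring. Each of these counts without Ep2 replicate 1 included Sdf2l1 as lower. Over all tested genes, limma called 23.9% higher and 29.3% lower, and 24.8% and 30.1% without Ep2 replicate 1. Shares under the other alternatives are not given here. Past both thresholds, 1 became 2 with centring or a pseudocount of 0.1, 0 with no filter or only the groups compared, and 0 to 2 without 1 library. Between Ep2 and Ep1, 2 became 1 with no filter, 6 with voom or centring and Ep2 replicate 1 left out, and 1 to 6 without 1 library, and 0 past both thresholds became 0 to 2. Without Ep2 replicate 1, the counts in limma and with voom included Xbp1 as lower. Over all tested genes, limma called 18.8% higher and 25.2% lower, and 19.0% and 25.5% without Ep2 replicate 1. The combinations with Ep2 replicate 1 were chosen after seeing the data, and the causes were not tested. The replicate numbers did not pair the libraries: deviations of same-numbered libraries correlated from -0.056 to 0.074, and the replicate block gave 1, 5 and 3 called genes in the 3 comparisons. With the block, Herpud1 was no longer called in Ep1 (adjusted p = 0.0788), and Hyou1 was called in Ep2 (0.0471) and between the doses (0.0497). With 3 libraries a group, 1 library decides many of these calls.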
